A study of Mus musculus with 12 samples.

Results

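Polycomb repressive complex 2 (PRC2) was described here through the RNA of 9 of its subunits, 9 of the 39017 genes in the deposited table of counts. They are the catalytic subunits Ezh1 and Ezh2, the core subunits Eed and Suz12, and the accessory subunits Jarid2, Aebp2, Mtf2, Phf1 and Phf19. Members were chosen by name through the symbols that belong to the Ensembl identifiers of the table, with no threshold on a measured value. All 9 were found under 1 identifier each, and all 9 passed the filter on low counts that left 17885 genes for testing.

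PRC2 is the enzyme complex that places the repressive mark H3K27me3 on histone H3. Its catalytic subunit, EZH2 or the weaker EZH1, works only together with EED, which binds existing H3K27me3, and SUZ12, the scaffold on which the other subunits assemble. Accessory subunits bind SUZ12 in alternative forms. The form called PRC2.1 carries a Polycomb-like protein (PHF1, MTF2 or PHF19), and the other, PRC2.2, carries JARID2 and AEBP2. In mouse embryonic stem cells (mESCs) these subunits bring the complex to unmethylated CpG islands of silent developmental genes, and mESCs without PRC2 still self-renew but differentiate poorly.

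Poly(A) RNA of 12 mESC libraries was sequenced, 3 biological replicates in each of 4 groups made of 2 lines in 2 media. J1 is a wild-type male line. The line 3B3-3l, which the study also writes as 3B3L, descends from cells lacking both Dnmt3a and Dnmt3b, the de novo DNA methyltransferases, and carries transgenes for Dnmt3b and its cofactor Dnmt3l under the constitutive CAG promoter, with blasticidin selection. The study made this line to hold DNA methylation in medium where wild-type cells lose it, so genotype, clonal history and methylation differ together between the lines and their parts cannot be told apart. Serum medium held fetal calf serum and leukemia inhibitory factor (LIF), given as 500 U/ml in the sample protocols, although the methods text states the 2i concentration for both media. The 2i medium was serum-free and held 1 uM of the MEK inhibitor PD0325901, 3 uM of the GSK3 inhibitor CHIR99021 and LIF at 1000 U/ml. J1 cells in serum grew on feeder cells that were depleted before analysis, and 3B3-3l cells on gelatin, so feeder use also differed between the lines.

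The libraries held 37050652 to 44515395 estimated reads, and the 9 subunits took up 0.133% to 0.159% of them. A count of 3 reads in a library corresponds to 0.0684 to 0.0813 CPM (counts divided by the scaled library total, times 1000000), well below every member value here. Such floors and the intervals given here cover counting error and the spread of these samples only. The line labels were checked on the engineered genes. Dnmt3b stood at 866 to 927 CPM in 3B3-3l serum and 914 to 936 CPM in 3B3-3l 2i, against 404 to 427 CPM in J1 serum and 41 to 47.2 CPM for J1 in 2i. Dnmt3l was likewise higher in 3B3-3l than in J1 in each medium. Dnmt3a was lower in 3B3-3l but not absent, at 29.4 to 34.3 CPM in serum and 4 to 5.07 CPM in 2i, and reads outside the disrupted part of that gene cannot test the allele. All 10 mESC markers examined, Pou5f1 and Nanog among them, exceeded 10 CPM in every library, with summed levels of 5111 to 7000 CPM. The summed level of 12 fibroblast markers, which feeder cells would carry, was 61.7 to 66.7 CPM in J1 serum, 78.2 to 89.6 CPM in 3B3-3l serum, 30.4 to 31.1 CPM in J1 2i and 19 to 19.5 CPM in 3B3-3l 2i. Lum and Fap were at or under the floor in all 12 libraries, and Col3a1, Dcn and Postn as well in the 2i libraries. Of the 8 fibroblast markers that passed the filter, 6 fell in 2i in each line, while Pdgfrb rose in J1 from a mean of 6.31 to 19.4 CPM (adjusted p = 5.85e-10) and so made up most of the sum in J1 2i. This summed level was higher in serum than in 2i in both lines, as were Jarid2 and Phf19 below, and its part in their differences was not tested. In these bulk samples a lower level in every cell and fewer cells with the RNA cannot be told apart.

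The promoter sequences of 4 subunits are shown because they carry the pairs described below, Ezh2 and Suz12, which were higher in J1 2i than in serum, and Jarid2 and Phf19, which were lower in 2i in both lines. Each window runs from 250 bases before to 50 bases after an annotated transcription start (RefSeq, GRCm38.p6) and is written 5′ to 3′ on the strand of the gene, with every CpG, the site of DNA methylation, in capitals.
Ezh2 (chr6:47594981-47595280, minus strand): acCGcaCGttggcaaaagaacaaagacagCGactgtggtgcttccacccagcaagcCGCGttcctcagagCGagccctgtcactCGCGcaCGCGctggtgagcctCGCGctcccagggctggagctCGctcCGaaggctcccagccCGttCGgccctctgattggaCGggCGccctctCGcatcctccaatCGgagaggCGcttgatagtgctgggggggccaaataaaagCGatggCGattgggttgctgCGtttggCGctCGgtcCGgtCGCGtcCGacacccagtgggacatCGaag
Suz12 (chr11:79992856-79993155, plus strand): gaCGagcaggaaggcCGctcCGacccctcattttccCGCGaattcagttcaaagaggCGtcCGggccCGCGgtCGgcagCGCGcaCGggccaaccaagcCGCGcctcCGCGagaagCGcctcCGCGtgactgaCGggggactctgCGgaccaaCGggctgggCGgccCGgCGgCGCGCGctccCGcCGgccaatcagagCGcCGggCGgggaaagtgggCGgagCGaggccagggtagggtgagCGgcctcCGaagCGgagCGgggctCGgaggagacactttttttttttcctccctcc
Jarid2 (chr13:44730524-44730823, plus strand, the more upstream of 2 annotated starts): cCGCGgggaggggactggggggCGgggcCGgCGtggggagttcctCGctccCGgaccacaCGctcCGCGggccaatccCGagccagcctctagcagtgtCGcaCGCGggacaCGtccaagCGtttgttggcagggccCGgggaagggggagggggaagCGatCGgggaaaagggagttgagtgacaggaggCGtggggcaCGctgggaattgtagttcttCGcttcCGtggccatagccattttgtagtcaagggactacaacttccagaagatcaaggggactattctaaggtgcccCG
Phf19 (chr2:34913927-34914226, minus strand): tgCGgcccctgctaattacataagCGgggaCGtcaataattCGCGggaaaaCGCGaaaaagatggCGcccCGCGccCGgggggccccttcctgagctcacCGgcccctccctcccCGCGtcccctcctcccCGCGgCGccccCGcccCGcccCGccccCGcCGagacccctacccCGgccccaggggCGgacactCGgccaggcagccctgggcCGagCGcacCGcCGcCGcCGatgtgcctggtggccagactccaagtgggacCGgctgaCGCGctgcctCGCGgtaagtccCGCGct

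These windows held 31 CpGs for Ezh2, 41 for Suz12, 24 for Jarid2 and 38 for Phf19, against a median of 7 over all 32851 promoter windows of the same length. CpG-dense promoters were therefore shared by subunits that were higher and by subunits that were lower in 2i. The table gave 13 windows for the 9 subunits, with 2 to 41 CpGs each, and every subunit had at least 1 window with 17 or more. The lowest counts were 4 CpGs in the most upstream and the most downstream of the 3 Aebp2 windows and 2 CpGs in the downstream Mtf2 window. A search for 3 short motifs was made on both strands. The E2F motif TTTNNCGC was found in the windows of Ezh2 (1 match), Suz12 (1 match) and Phf19 (2 matches), and it occurs in 5.17% of all windows. The ETS motif CCGGAAG (8.86% of all windows) and the TCF motif CTTTGAT (3.73% of all windows) had no match in the 13 windows. A match describes the letters only, and DNA methylation was not measured in these files.

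To ask how the subunits respond to 2i in wild-type cells, J1 2i was compared with J1 serum. PRC2 RNA did not move in a single direction. Ezh2, Suz12, Aebp2 and Phf1 rose, Ezh1, Eed, Jarid2 and Phf19 fell, and Mtf2 did not pass the test. Thus 8 of the 9 subunits changed at an adjusted p under 0.05 (edgeR quasi-likelihood test, Benjamini-Hochberg over all genes tested), 4 higher and 4 lower, where 33.2% of all genes tested were higher and 32.9% lower. With that background, the count by itself sets the subunits little apart from other genes. Their median absolute log2 change was 0.57, against 0.44 over all genes tested. The same comparison in 3B3-3l called 7 of the 9 (4 higher and 3 lower), with 32.7% of all genes higher and 32.7% lower, and a median absolute log2 change of 0.27 against 0.43 over all genes tested.

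**Figure D1:**
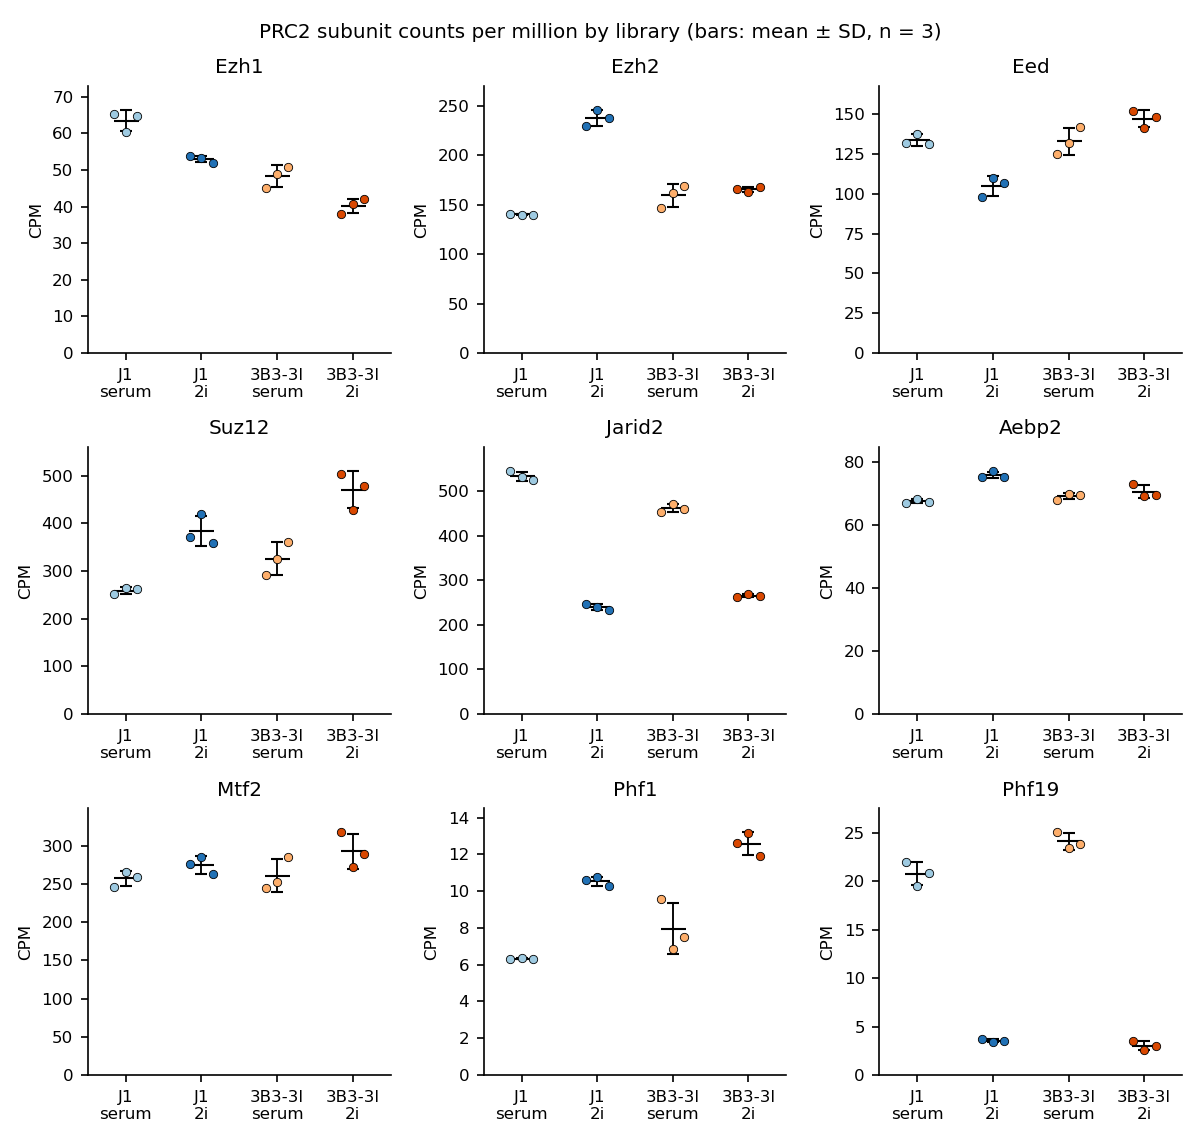
Levels in CPM of the 9 subunits in each of the 12 libraries (points), with group mean and SD (bars, n = 3). Each panel has its own axis, which starts at 0. Phf19 and Jarid2 are lower in 2i in both lines, while Ezh2 has its highest group mean, 238 CPM, in J1 2i and the other 3 groups lie between 140.3 and 166 CPM.

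The catalytic subunits came apart from each other. Ezh2 (chr6:47530274-47595270) carries most of the H3K27 methyltransferase activity of dividing cells. Its level was 141, 139.7 and 140.1 CPM in the 3 libraries of J1 serum, against 230.0, 246 and 237 CPM in J1 2i. It was 147, 162 and 169 CPM in 3B3-3l serum and 166, 163 and 168 CPM in 3B3-3l 2i. The J1 2i libraries were higher than all 9 others, and the 3B3-3l groups overlapped each other. Ezh2 rose by 0.76 on the log2 scale in J1 (SE 0.051, 1.69-fold, adjusted p = 2.09e-09). In 3B3-3l its log2 difference was 0.05 (95% interval -0.05 to 0.16, adjusted p = 0.364), so a change of the size seen in J1 lies outside the interval. The test of the difference between the lines, 3B3-3l minus J1, gave -0.71 (SE 0.072, adjusted p = 2.87e-06).

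Ezh1 (chr11:101191115-101226463), the paralogue that predominates in non-dividing cells, went the other way and did so alike in both lines. Its level was 65.4, 60.3 and 64.8 CPM for J1 in serum, 53.7, 53.3 and 52 CPM for J1 in 2i, 45.1, 49 and 50.9 CPM in 3B3-3l serum and 38, 40.6 and 42 CPM in 3B3-3l 2i. No group overlapped another. Ezh1 fell by 0.26 in J1 (SE 0.0566, adjusted p = 0.000766) and by 0.27 in 3B3-3l (SE 0.0577, adjusted p = 0.000736) on the log2 scale. The difference between these changes was -0.01, with a 95% interval of -0.18 to 0.17.

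The core subunits also differed. Suz12 (chr11:79993106-80034123), the scaffold, stood at 251, 264 and 261 CPM in J1 serum, against 371, 419.6 and 359.6 CPM in J1 2i. In 3B3-3l it stood at 291, 325 and 361 CPM in serum and 504, 428 and 479 CPM in 2i. Within each line the media did not overlap. Suz12 rose by 0.57 in J1 (SE 0.0787, 1.48-fold, adjusted p = 1.03e-05) and by 0.53 in 3B3-3l (SE 0.0785, 1.44-fold, adjusted p = 1.94e-05). The difference between the lines was -0.04 (95% interval -0.27 to 0.20). Suz12 has a GC content of 41.6%, below that of all but 8.62% of the tested genes of known GC content. Its 2 rises also passed with an offset for GC content.

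Eed (chr7:89954654-89980976), which reads H3K27me3 and activates the enzyme, went in opposite directions in the 2 lines. It stood at 132, 138 and 131 CPM in J1 serum, against 97.9, 110.2 and 107 CPM in J1 2i, without overlap. In 3B3-3l it stood at 125, 132 and 142 CPM in serum and 152, 142 and 148 CPM in 2i, where the highest serum library lay just above the lowest 2i library. Eed fell by 0.35 on the log2 scale in J1 (SE 0.0568, adjusted p = 5.34e-05). In 3B3-3l its difference of 0.15 passed narrowly (95% interval 0.03 to 0.27, adjusted p = 0.0334). That call was lost without any of 8 single libraries, among them every 3B3-3l 2i library and 3B3-3l serum replicates 1 and 2. The value was 0.07 without 3B3-3l serum replicate 1. The rest were the J1 serum libraries, which are outside this comparison, and leaving out any of them gave 0.12. The call was also lost without a filter on low counts (adjusted p = 0.067) or with at least 10 counts required in every library (0.09, adjusted p = 0.177). The difference between the lines was larger and held in each of these runs, at 0.49 (SE 0.0801, adjusted p = 0.000222).

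**Figure D2:**
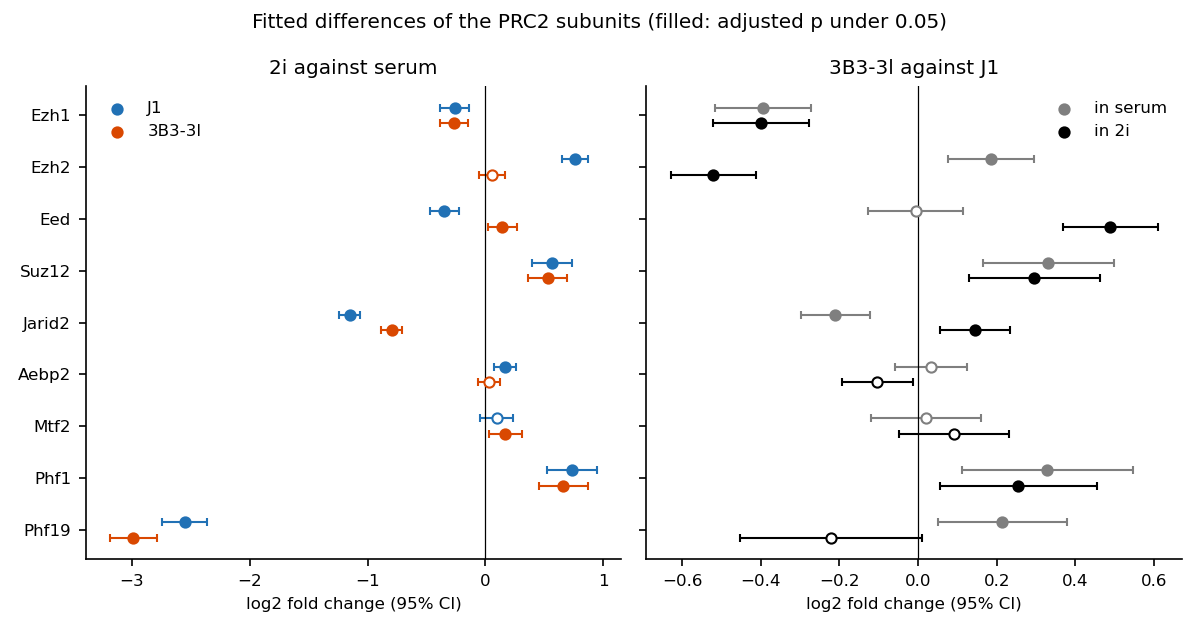
Fitted log2 fold changes of the 9 subunits with 95% intervals, for 2i against serum within each line (left) and for 3B3-3l against J1 within each medium (right). Filled points passed an adjusted p of 0.05 and open points did not. Ezh2 and Eed lie apart between the lines on the left, and Phf19 has the largest fall, -2.55 in J1 and -2.99 in 3B3-3l.

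Among the accessory subunits, Phf19 and Jarid2 had the largest changes of the family, both downward in 2i. Phf19 (chr2:34893752-34914353) is a Polycomb-like protein whose Tudor domain binds H3K36 methylation. It stood at 22, 19.6 and 20.8 CPM in J1 serum, and fell to 3.71, 3.37 and 3.54 CPM in J1 2i. In 3B3-3l it stood at 25.1, 23.4 and 23.9 CPM in serum and 3.53, 2.57 and 3.02 CPM in 2i. The 2i libraries lay far below the serum libraries in both lines, and the smallest of them still rested on 111 reads. Phf19 fell by 2.55 in J1 (SE 0.091, 5.87-fold, adjusted p = 1.06e-12) and by 2.99 in 3B3-3l (SE 0.0931, 7.94-fold, adjusted p = 1.71e-13) on the log2 scale. The fall was deeper in 3B3-3l, with a difference of -0.44 (SE 0.133, adjusted p = 0.019), and did not pass once J1 2i replicate 1 was left out (value -0.40, adjusted p = 0.0518).

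Jarid2 (chr13:44730774-44921643), a catalytically inactive Jumonji protein that binds PRC2 to ubiquitinated H2A, was lower in 2i in both lines. It stood at 544, 532 and 524 CPM in J1 serum, against 246, 240.1 and 234 CPM in J1 2i. In 3B3-3l it stood at 453, 471 and 458 CPM in serum and 263, 269.5 and 264 CPM in 2i. Its 4 groups did not overlap, and both 2i groups lay below both serum groups. Jarid2 fell by 1.15 in J1 (SE 0.0418, 2.22-fold, adjusted p = 1.28e-12) and by 0.80 in 3B3-3l (SE 0.0416, 1.74-fold, adjusted p = 8.33e-11). The fall was smaller in 3B3-3l by 0.36 on the log2 scale (SE 0.0585, adjusted p = 0.00025). Of the members, only Phf19 in both lines and Jarid2 in J1 passed when the change was tested against a fold of 2, a test that 15.4% of all genes passed in J1 and 16.6% in 3B3-3l. No member passed it between the lines in serum (0.509% of all genes), between the lines in 2i (2.35%) or for the difference between the lines (1.7%).

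Aebp2 (chr6:140622454-140678472), the zinc finger partner of Jarid2 in PRC2.2, did not follow Jarid2. It stood at 67.1, 68.2 and 67.4 CPM for J1 in serum, 75.1, 77.1 and 75.4 CPM for J1 in 2i, 68.1, 69.9 and 69.5 CPM in 3B3-3l serum and 73.1, 69.3 and 69.4 CPM in 3B3-3l 2i. Aebp2 rose in J1 by 0.17 (SE 0.0427, adjusted p = 0.0028). In 3B3-3l its difference was 0.03 (95% interval -0.06 to 0.12), and the difference between the lines, -0.14, did not pass (95% interval -0.27 to -0.01, adjusted p = 0.0934).

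Phf1 (chr17:26933127-26937908), another Polycomb-like protein, had the lowest level per length of the 9 in serum and rose where Phf19 fell. It stood at 6.33, 6.39 and 6.29 CPM in J1 serum, against 10.6, 10.8 and 10.3 CPM in J1 2i. In 3B3-3l it stood at 9.55, 6.86 and 7.49 CPM in serum, where replicate 1 lay above the other libraries, and 12.6, 13.2 and 11.9 CPM in 2i. Phf1 rose by 0.73 in J1 (SE 0.0996, 1.66-fold, adjusted p = 7.89e-06) and by 0.66 in 3B3-3l (SE 0.0966, 1.58-fold, adjusted p = 1.7e-05). Its difference between the lines was -0.07 (95% interval -0.37 to 0.22).

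Mtf2 (chr5:108065660-108109219), the main Polycomb-like protein of mESCs, varied least with the medium in J1. It stood at 247, 266 and 259.8 CPM for J1 in serum, 276, 286 and 263 CPM for J1 in 2i, 245, 253 and 285 CPM in 3B3-3l serum and 318, 272 and 289 CPM in 3B3-3l 2i, and the groups overlapped. Its log2 difference was 0.09 in J1 (95% interval -0.04 to 0.23, adjusted p = 0.216) and 0.17 in 3B3-3l (95% interval 0.03 to 0.31, adjusted p = 0.0354). The call in 3B3-3l was lost without any of 7 single libraries and under 4 other settings given with the sensitivity results. Values went down to 0.09 without 3B3-3l serum replicate 1 and 0.10 without 3B3-3l 2i replicate 1. Among the 7 were the J1 serum libraries, which are outside this comparison, and leaving out any of them gave 0.14. Mtf2 has the lowest GC content of the family, 38.2%, below all but 1.76% of the tested genes of known GC content. Its difference between the lines, 0.07 (adjusted p = 0.586), passed with GC offsets at 0.21 (adjusted p = 0.00859).

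Between the lines, the members' response to 2i differed for 4 of the 9 subunits. Jarid2 and Eed had the higher 2i effect in 3B3-3l, and Ezh2 and Phf19 the lower, where 16.3% of all genes tested were higher and 18.3% lower in that test. The median absolute difference was 0.14 over the subunits and 0.30 over all genes tested. These 5 comparisons share libraries, so their counts are not independent of each other.

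To see how the lines compare at a fixed medium, 3B3-3l was set against J1. In serum, 6 of the 9 subunits differed, 4 higher and 2 lower, with 21.5% of all genes higher and 17.2% lower in 3B3-3l. In 2i, 6 also differed, 4 higher and 2 lower, with 23% of all genes higher and 22.9% lower. The median absolute log2 difference of the subunits was 0.21 in serum and 0.26 in 2i, against 0.23 and 0.27 over all genes tested.

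Ezh1 was lower in 3B3-3l in both media, with a log2 difference of -0.39 in serum (adjusted p = 5.81e-05) and of -0.40 in 2i (adjusted p = 3.52e-05). Suz12 was higher in both, by 0.33 in serum (adjusted p = 0.00355) and 0.30 in 2i (adjusted p = 0.00572). Phf1 was higher by 0.33 in serum (adjusted p = 0.0189), a call lost at 0.18 without 3B3-3l serum replicate 1. It was higher by 0.26 in 2i (adjusted p = 0.0359), a call lost without any of 9 single libraries. Among those 9, the J1 serum libraries and 3B3-3l serum replicate 3 are outside the 2i comparison, and leaving out any of them gave 0.23. Ezh2 changed sides, higher by 0.19 in 3B3-3l serum (adjusted p = 0.00935, and 0.0512 without 3B3-3l serum replicate 3) and lower in 3B3-3l 2i with a log2 difference of -0.52 (adjusted p = 7.05e-07). Jarid2 changed sides in the other sense, at -0.21 in serum (adjusted p = 0.000848) and 0.14 in 2i (adjusted p = 0.00938, and 0.0933 without 3B3-3l 2i replicate 2, 0.0736 without a filter on low counts and 0.056 with only the 6 libraries compared).

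Eed did not differ beyond its error in serum (log2 difference -0.01, 95% interval -0.13 to 0.11) and was higher in 3B3-3l in 2i by 0.49 (SE 0.0567, adjusted p = 4.35e-06). Phf19 was higher in 3B3-3l serum by 0.21 (adjusted p = 0.0377), which no longer passed when any of 5 libraries was left out, without a filter on low counts or with length offsets. In 2i its log2 difference was -0.22 (95% interval -0.45 to 0.01), and it passed only without 3B3-3l 2i replicate 1 (-0.35, adjusted p = 0.0198). Aebp2 and Mtf2 did not pass in either medium, although Mtf2 passed in both with GC offsets, lower in 3B3-3l serum (-0.10, adjusted p = 0.0484) and higher in 3B3-3l 2i (0.10, adjusted p = 0.0399). Their intervals in 2i were -0.19 to -0.01 for Aebp2, whose 2 groups did not overlap, and -0.05 to 0.23 for Mtf2.

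CPM does not allow a comparison between genes of unequal length. For that, reads of each transcript were divided by its effective length, summed per gene and scaled to the same total in each library. Transcripts with an effective length under 50 bases were left out. Transcripts not annotated as protein-coding were counted too, among them most of the Mtf2 transcripts described below. On this scale Jarid2 was the most abundant subunit in J1 serum, with a mean of 166 (164 to 169), followed by Mtf2 at 145 (138 to 150) and Eed at 118 (113 to 123). Of the Eed level in J1 serum, 18.7% came from Eed-002, a processed transcript of 454 bases with 139 to 211 reads a library. The rank of Eed without it was not computed. Suz12 at 91.4 and Ezh2 at 91.3 were level with each other, and Aebp2 at 48, Ezh1 at 25.4, Phf19 at 8.65 and Phf1 at 3.95 followed in separate ranges. In J1 2i the order was Mtf2 at 164, Ezh2 at 162 and Suz12 at 137, whose neighbouring ranges overlapped, then Eed at 88.5 and Jarid2 at 77.1. Jarid2 thus went from rank 1 to rank 5. Phf1 at 6.81 then stood above Phf19 at 1.52.

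The order in 3B3-3l shared the drop of Jarid2 and the exchange of Phf19 and Phf1. Ezh2, which went from rank 5 to rank 2 in J1, was at rank 4 in both media in 3B3-3l. In serum Mtf2 at 164 and Jarid2 at 149 led with overlapping ranges, and Suz12 at 120, Ezh2 at 109.7 and Eed at 108 overlapped each with the next. In 2i Suz12 at 174.5 and Mtf2 at 173.6 led with overlapping ranges, ahead of Eed at 117 and Ezh2 at 109, and Jarid2 at 81.8 was again at rank 5. Phf19 stood above Phf1 in 3B3-3l serum, at 10.5 against 5.2, and below it in 3B3-3l 2i, at 1.27 against 7.8.

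**Figure D3:**
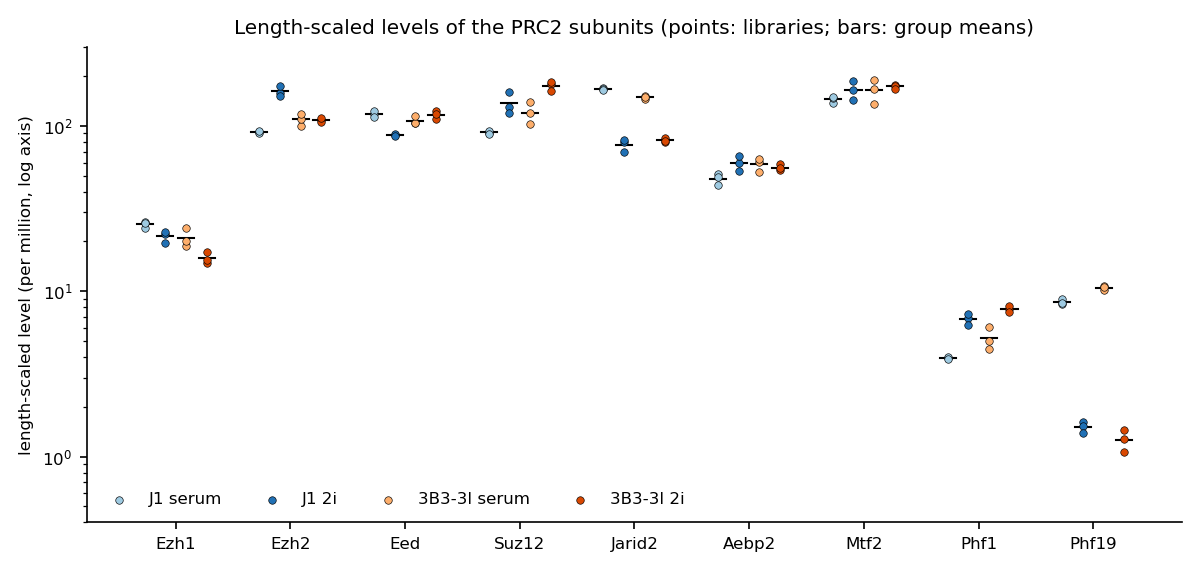
Length-scaled levels of the 9 subunits (log axis, reads per effective length scaled to the same total in every library) in each library (points) and group mean (bars). Phf19 and Phf1 exchange order between serum and 2i in both lines, and Jarid2 drops from the top ranks in serum to rank 5 in 2i.

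Shares among subunits that replace each other in the complex were tested with an exact two-sided permutation test, with the media exchanged within each line or the lines within each medium (400 arrangements, smallest possible p = 0.005), and adjusted over the 10 such tests. All 5 effects of the medium reached that smallest p (adjusted p = 0.01), and none of the 5 effects of the line passed (adjusted p = 0.0583 to 0.85). The Mtf2, Phf19 and Phf1 shares add up to the whole in each library. The share of Jarid2 plus Aebp2 is taken over the same genes too, so these tests are not independent of each other. Ezh2 made up 77.6%, 78.9% and 78.2% of the length-scaled level of Ezh1 plus Ezh2 in J1 serum, 87.6%, 88.5% and 88.6% in J1 2i, 84.3%, 84.6% and 83.1% in 3B3-3l serum and 88%, 87.3% and 86.6% in 3B3-3l 2i. Its share was 6.66 percentage points higher in 2i, 9.99 in J1 and 3.32 in 3B3-3l. In J1 the mean length-scaled level of Ezh2 was 91.3 in serum and 162 in 2i. In 3B3-3l it was 109.7 and 108.9, so there the share was higher in 2i while the Ezh2 level was not. The mean level of Ezh1 in 3B3-3l was 21 in serum and 15.8 in 2i. The line effect on the Ezh2 share averaged a value of 5.74 points higher in 3B3-3l in serum, where the libraries of the lines did not overlap. Its other value was -0.93 points in 2i, where they did.

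Within the Polycomb-like family, Mtf2 made up most of the RNA everywhere when all transcripts were counted, and the minor members traded places. The protein-coding transcript Mtf2-001 held 9.67% to 13.1% of Mtf2 as group means, while the protein-coding Phf19-001 held 84.7% to 86% of Phf19. Shares of protein-coding RNA alone were not computed, and the same Mtf2 level enters the share of the accessory subunits below. The Mtf2 share was 92% ± 0.53 (SD, n = 3) in J1 serum, 95.2% ± 0.282 in J1 2i, 91.1% ± 1.87 in 3B3-3l serum and 95% ± 0.01 in 3B3-3l 2i. Mtf2 itself did not pass between the media in J1 (edgeR quasi-likelihood test, adjusted p = 0.216). In 3B3-3l it passed at 0.0354, a call lost in 12 of 22 alternatives. The Phf19 share fell by 4.94 percentage points in 2i. It went from 6%, 5.25% and 5.26% in J1 serum to 0.941%, 0.789% and 0.921% in J1 2i, and from 7.07%, 5.59% and 5.21% to 0.777%, 0.577% and 0.725% in 3B3-3l. The Phf1 share was 1.37 percentage points higher in 2i, with 2.51% ± 0.105 and 3.96% ± 0.209 in J1 serum and 2i, and 2.98% ± 0.894 and 4.27% ± 0.108 in 3B3-3l. In 3B3-3l serum the share of Phf1 was 4.01% in replicate 1 and 2.46% in each of the other libraries.

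The summed share of the PRC2.2 subunits fell in 2i, although only the mean share of Jarid2 was lower there and that of Aebp2 was higher. Jarid2 plus Aebp2 made up 59.3%, 56.8% and 56.8% of the 5 accessory subunits in J1 serum and 44.6%, 43% and 45.1% in J1 2i. In 3B3-3l they made up 56.6%, 53.7% and 51% in serum and 41.8%, 43.6% and 43.6% in 2i. The share fell by 12.1 percentage points in 2i over both lines, fell by 13.4 in J1 and fell by 10.8 in 3B3-3l, and the serum and 2i libraries did not overlap. Jarid2 alone had a mean share of 44.7% in J1 serum, 25% in J1 2i, 38.7% in 3B3-3l serum and 25.5% in 3B3-3l 2i. Aebp2 alone had 12.9%, 19.3%, 15.1% and 17.5% in the same order, and its serum and 2i libraries did not overlap in either line. The length-scaled level of Aebp2 had means of 48 and 59.5 in J1 serum and 2i. In 3B3-3l these means were 58.5 and 56, so there the share was higher in 2i while the level was not. A protein-coding transcript of 912 bases, Aebp2-201, had 254 to 682 reads a library. It made up 32.2% of the Aebp2 level in J1 serum, 38.8% in J1 2i, 38% in 3B3-3l serum and 45% in 3B3-3l 2i. The share and rank of Aebp2 without it were not computed. The shares are of RNA, and protein was not measured in these files.

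**Figure D4:**
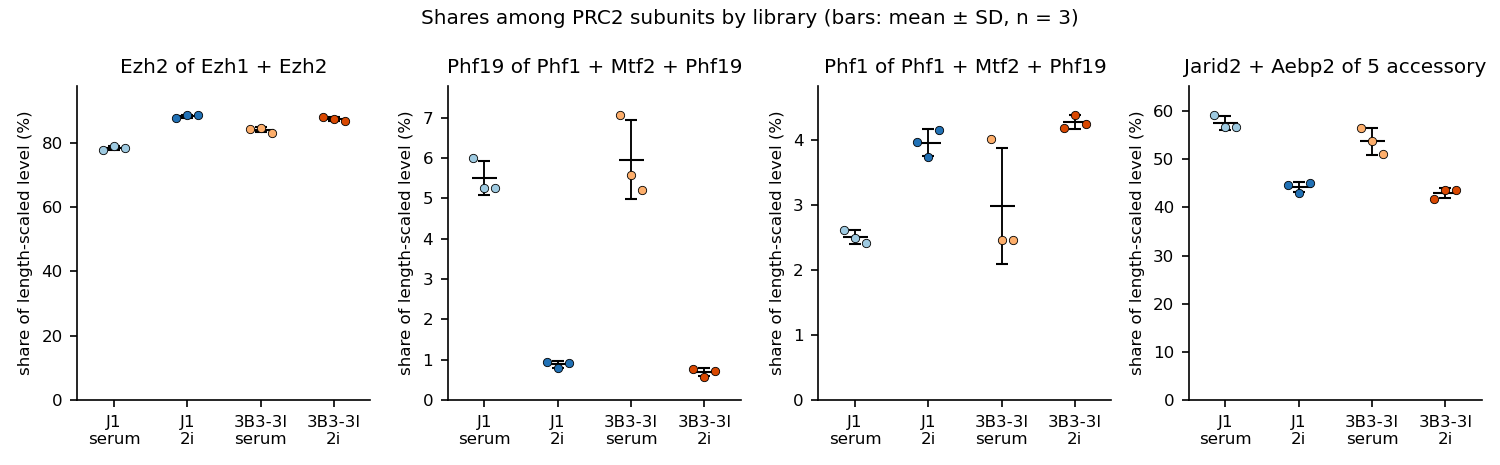
Shares of the length-scaled level (%) in each library (points), with group mean and SD (bars, n = 3), for Ezh2 within Ezh1 plus Ezh2, Phf19 and Phf1 within the Polycomb-like family, and Jarid2 plus Aebp2 within the 5 accessory subunits. Serum and 2i libraries of each line are apart in every panel. For Phf1 in 3B3-3l they are apart narrowly, at most 4.01% in serum and at least 4.18% in 2i.

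The deposited transcript tables held 75 transcripts of the 9 subunits, and their reads add up to the gene counts. Of these, 23 transcripts of 8 subunits made up at least 10% of their gene's length-scaled level in some group, alongside another such transcript. In 46 exact permutation tests of their shares, 23 for the medium and 23 for the line, 0 passed after adjustment. If only tests at the smallest p were to pass among this many, at least 5 of them would have been needed. At an unadjusted p under 0.05, 6 tests of the medium and 5 of the line passed. The transcript at the smallest p for both effects was Aebp2-002, a protein-coding transcript of 3727 bases, which made up 27.5% of Aebp2 in J1 serum, 20.1% in J1 2i, 20.6% in 3B3-3l serum and 15.2% in 3B3-3l 2i (exact permutation p = 0.005 and adjusted p = 0.115 for each effect). Phf19-001, the main protein-coding transcript of Phf19, held 84.7% to 86% of that gene in each group, and its share differed by 0.43 percentage points between the media (exact permutation p = 0.885). Mtf2 was divided over 5 transcripts with group means of 9.67% to 25.4%, and of these 5 only Mtf2-001 is annotated as protein-coding.

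The genes whose log2 CPM followed each subunit most closely over the 12 libraries were sought among the 9980 genes that reached 10 CPM as the mean of their highest group. These correlations describe 12 libraries that share 4 groups, and they carry no test. Phf19 had the closest followers, Fndc4 (r = 0.998), Igsf10 (r = 0.997) and Frmd5 (r = 0.997). Jarid2 was followed by Tcf20 (r = 0.996), Creb3l1 (r = 0.995) and Enah (r = 0.995). Suz12 was followed by Ankib1 (r = 0.994), Ezh2 by Thumpd3 (r = 0.989), Ezh1 by the double-strand break repair gene Rad50 (r = 0.984), Eed by Smek1 (r = 0.978), Phf1 by Clic1 (r = 0.973) and Aebp2 by Rnf11 (r = 0.97). Mtf2 had the least similar nearest gene, Cnot7 (r = 0.946), a deadenylase subunit. Among the subunits themselves, Jarid2 and Phf19 had r = 0.96 and Ezh2 and Aebp2 r = 0.95, while Ezh2 and Eed had r = -0.74 over the libraries. After subtraction of the group means, Jarid2 and Phf19 had r = -0.19, Ezh2 and Aebp2 r = 0.43, Ezh2 and Eed r = 0.82 and Suz12 and Mtf2 r = 0.91. Mtf2 (38.2%) and Suz12 (41.6%) have the lowest GC content of the subunits, and its part in their r was not tested.

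Further genes were taken from a fixed list of 9, made of PRC2 partners, H3K27 demethylases and the Kdm6a paralogue Uty, and all 9 were tested. In J1, 0 of them rose and 3 fell in 2i (Rbbp4, Lcorl and the demethylase Kdm6a). In 3B3-3l, 3 rose (Rbbp4, Epop and the demethylase Kdm6b) and 4 fell (Rbbp7, Lcorl, Ezhip and Uty). Against J1, 3B3-3l had 4 higher and 2 lower in serum, and 4 higher and 2 lower in 2i. The backgrounds are the shares of all genes given above.

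Ezhip, an X-linked inhibitor whose protein blocks the catalytic site of EZH2, had the largest differences of the list. It stood at 2.46, 2.41 and 2.71 CPM in J1 serum, against 2.51, 2.27 and 2.98 CPM in J1 2i, which overlapped. In 3B3-3l it stood at 5.4, 6.38 and 5.67 CPM in serum and 1.27, 0.857 and 0.902 CPM in 2i, the highest and the lowest of the 4 groups. In J1 its log2 difference was 0.03 (95% interval -0.28 to 0.34), in 3B3-3l it fell by 2.52 (SE 0.154, 5.74-fold, adjusted p = 5.81e-10), and the difference between the lines was -2.55 (adjusted p = 4.09e-07). The 3B3-3l 2i values rest on 35 to 53 reads a library, and Ezhip overlaps the annotated gene Gm26618.

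Rbbp4 and Rbbp7 are histone-binding partners of the core. Rbbp4 had group means of 457 and 406 CPM in J1 serum, against 2i, and 488 and 529.8 CPM in 3B3-3l. It fell in J1 with a log2 change of -0.17 (adjusted p = 0.00298) and rose by 0.12 in 3B3-3l (adjusted p = 0.0261), with a difference between the lines of 0.29 (adjusted p = 0.0021). Against J1 it was higher in 3B3-3l by 0.38 in 2i (adjusted p = 3.58e-06), and by 0.10 in serum, which did not pass (adjusted p = 0.0927). Rbbp7 had a log2 difference of -0.02 in J1 (95% interval -0.13 to 0.09) and fell in 3B3-3l with a log2 change of -0.24 (adjusted p = 0.000814). The difference between the lines was -0.22 (adjusted p = 0.032). Rbbp7 was higher in 3B3-3l than in J1 by 0.39 in serum (adjusted p = 2.99e-05) and 0.17 in 2i (adjusted p = 0.0142). Epop, an elongin-binding partner of PRC2.1, was lower in 3B3-3l than in J1 serum, at 222 ± 32.3 against 319 ± 14.7 CPM (SD, n = 3; log2 difference -0.53, adjusted p = 0.000153). Lcorl, which overlaps Ncapg, fell in both lines, by 0.40 in J1 and 0.92 in 3B3-3l on the log2 scale.

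Of the demethylases that remove H3K27me3, Kdm6b was at 66.3 and 72.5 CPM in J1 serum, against 2i (log2 difference 0.13, adjusted p = 0.061) and rose by 0.36 in 3B3-3l (adjusted p = 4.89e-05). Kdm6a fell in J1 with a log2 change of -0.43 (adjusted p = 0.000329) and had a log2 difference of -0.18 in 3B3-3l (95% interval -0.36 to -0.002, adjusted p = 0.0708). Uty was listed as the Y-linked paralogue of Kdm6a and not as a demethylase. It had a log2 difference of -0.08 in J1 (adjusted p = 0.615) and fell by 0.55 in 3B3-3l (adjusted p = 0.000851).

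**Figure D5:**
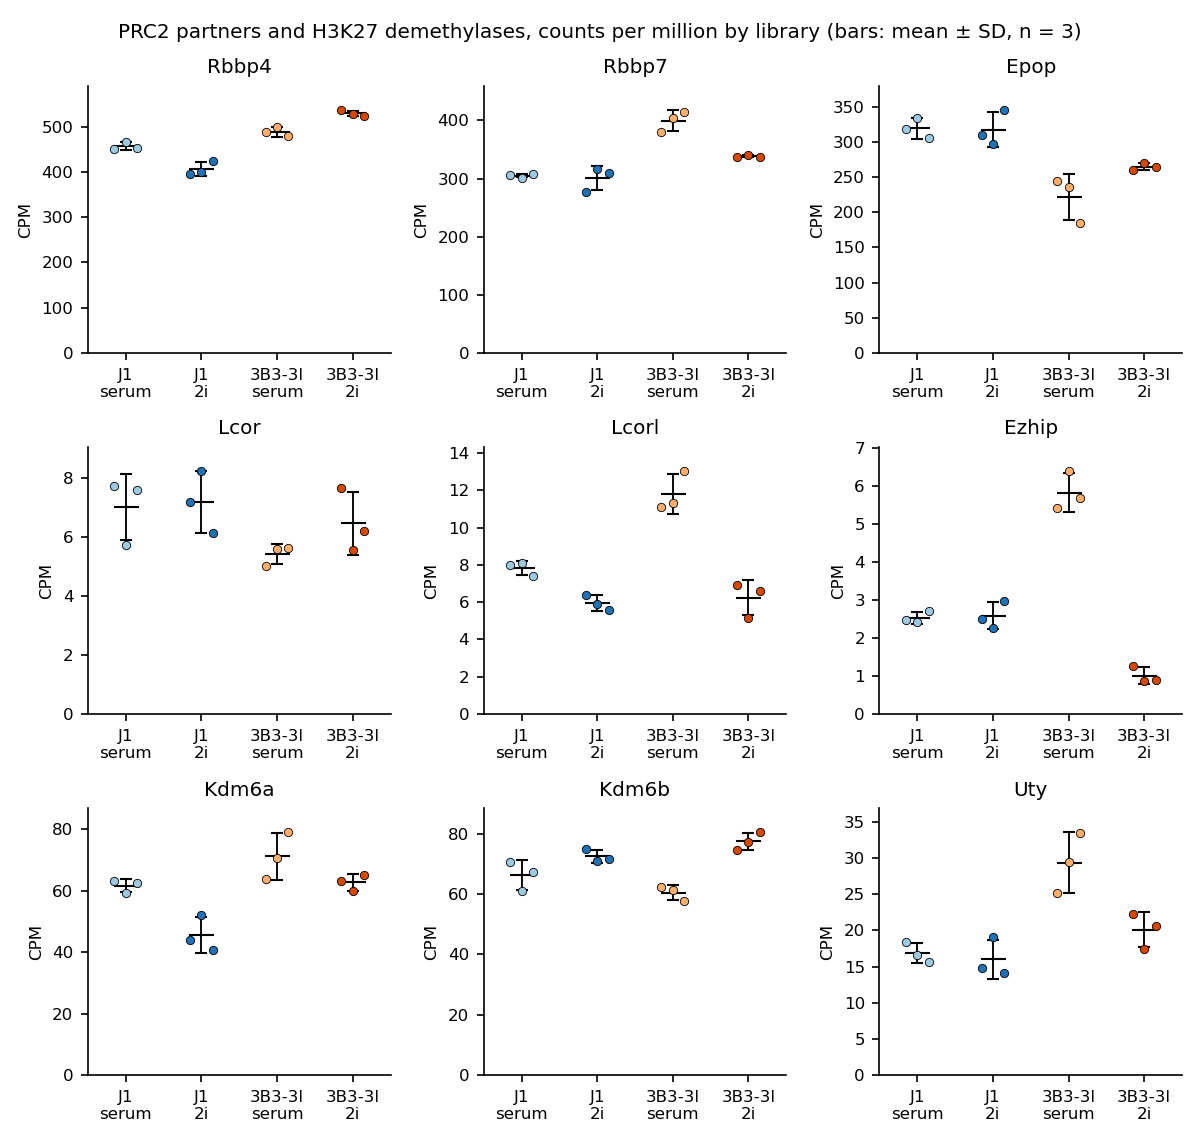
Levels in CPM of the 9 listed PRC2 partners, H3K27 demethylases and Kdm6a paralogue Uty in each library (points), with group mean and SD (bars, n = 3). Each axis starts at 0. Ezhip is highest in 3B3-3l serum (5.82 CPM) and lowest in 3B3-3l 2i (1.01 CPM), with the J1 groups between.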

How the data were processed

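RNA of 12 mESC libraries was prepared by the authors with a stranded poly(A) kit from 500 ng of RNA (RIN at least 9.9) and sequenced on a NextSeq instrument. Per the study's methods, transcripts were quantified with Sailfish in strand-aware mode on mm10 models. The methods name RefSeq, whereas the identifiers are those of Ensembl. The authors summed transcripts with tximport into the deposited gene table of expected (estimated) counts, with no scaling for depth or length. The deposited transcript tables hold estimated counts, effective lengths in bases and TPM. In the libraries, 19.8% to 50.2% of the deposited TPM belonged to transcripts whose effective length was under 50 bases, so TPM was not used for levels, and reads per effective length were computed in its place. Which libraries shared a sequencing pool is not given in the sources used here.

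The sample titles gave the group and replicate number of each library. Gene symbols matched 85.6% of the 39017 identifiers. The members and lists were chosen with earlier results of these data known. The named genes were the 9 members, 9 fixed partners, the 3 genes most like each member and the 3 engineered genes, with marker lists as sums. Counts were rounded, filtered with filterByExpr and scaled by TMM (factors 0.97 to 1.04), and 5 contrasts were tested over all 12 libraries with the edgeR quasi-likelihood test (edgeR 4.0.16, R 4.3.3), with Benjamini-Hochberg adjustment over 17885 genes and calls at 0.05. The biological coefficient of variation was 6.49%. The study gives no differential test for these data. CPM values use the scaled library sizes, and p-values measure the spread between 3 cultures a group of 1 line each. Shares were compared with exact permutation tests in Python 3.11.15. The scripts were tested on simulated data. Alternatives were DESeq2 1.42.0, other scaling, filters, sample sets, length offsets, a replicate block and leaving out each library. An offset for GC content, known for 84.8% of genes tested, was added after seeing the data. Members' coordinates and promoters are from RefSeq on GRCm38, which has the coordinates of mm10.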

Additional observations from a re-analysis of the deposited data

Results flagged for a closer look

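The change from serum to 2i differed between the lines for 4 of the 9 subunits by the test of that difference itself (edgeR quasi-likelihood test, 3B3-3l minus J1, log2 scale), where 16.3% of all genes tested were higher and 18.3% lower. The values were -0.71 for Ezh2, 0.49 for Eed, 0.36 for Jarid2 and -0.44 for Phf19. Among the 9 genes of the partner list it differed for 6 (2 higher and 4 lower, against the same 16.3% and 18.3%), with -2.55 for Ezhip, -0.52 for Lcorl, -0.47 for Uty, 0.29 for Rbbp4, 0.23 for Kdm6b and -0.22 for Rbbp7. No cause was tested for any of them. Groups of 3 libraries were not tested for a single outlying library.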

How the results depend on the processing

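The 8 calls in J1 and the falls of Ezh1, Jarid2 and Phf19 and rises of Suz12 and Phf1 in 3B3-3l passed under every alternative except the test against a fold of 2. Under that test the members called went from 8 to 2 in J1, 7 to 1 in 3B3-3l, 6 to 0 between lines in serum, 6 to 0 between lines in 2i and 4 to 0 for the difference between lines, where 15.4%, 16.6%, 0.509%, 2.35% and 1.7% of all genes tested passed. Without single libraries the counts were 8 in J1, 5 to 7 in 3B3-3l, 4 to 6 in serum, 4 to 7 in 2i and 3 to 5 for the difference. With transcript length offsets Eed (-0.20) and Aebp2 (0.22) passed between lines in serum. GC offsets, chosen after seeing the data, added calls for Mtf2 in 2i between lines (0.10, adjusted p = 0.0399) and in the difference (0.21, adjusted p = 0.00859). The Aebp2 difference passed with at least 10 counts in every library (-0.17, adjusted p = 0.033) and without 3B3-3l serum replicate 1 (-0.18). Aebp2 between lines in 2i, -0.10, passed in 11 of 22 alternatives, DESeq2 among them. Other settings lost Mtf2 in 3B3-3l (10 counts, adjusted p = 0.155, length offsets, 0.137, and 6 libraries, 0.0521), Eed in 3B3-3l (10 counts, 0.177, and no filter, 0.067), Phf1 in 2i (10 counts, 0.0554, and length offsets, 0.0547), Phf1 in serum (6 libraries, 0.0617), Phf19 in serum (no filter, 0.0769, and length offsets, 0.0583) and Jarid2 in 2i (no filter, 0.0736, and 6 libraries, 0.056).

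Replicate numbers did not pair the samples (18 correlations of same-numbered libraries, -0.105 to 0.0549). With the replicate block Mtf2 in 3B3-3l was lost (0.17, adjusted p = 0.0564), and no other member call changed under the block. Over 6 pairs the share effects of the medium, whose values the pairing cannot move, were 6.66 for Ezh2, 3.57 for Mtf2, -4.94 for Phf19, 1.37 for Phf1 and -12.1 for Jarid2 plus Aebp2, with adjusted p = 0.0625, where p cannot go below 0.0312.

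Signs turned only for values that had not passed. With GC offsets these were Mtf2 in J1 (-0.0059), Aebp2 (-0.030) and Mtf2 (-0.10, adjusted p = 0.0484) between lines in serum and the Suz12 difference (0.037). They were Ezh2 (-0.0017) and Aebp2 (-0.027) in 3B3-3l and Eed in serum (0.0015) with at least 10 counts in every library, Mtf2 in serum (-0.0035) and the Ezh1 difference (0.0043) without a filter, Aebp2 (-0.0012) and Mtf2 (-0.014) in serum with 6 libraries, and the Suz12 difference with length offsets (0.084). Without single libraries the ranges were -0.030 to 0.071 for Ezh2 and -0.011 to 0.042 for Aebp2 in 3B3-3l, -0.046 to 0.068 for Mtf2 and -0.052 to 0.039 for Eed in serum, and, for the difference, -0.082 to 0.033 for Ezh1, -0.14 to 0.034 for Suz12, -0.0013 to 0.11 for Mtf2 and -0.20 to 0.048 for Phf1. For the line effect on shares they were -0.84 to 0.012 for Mtf2, -0.15 to 0.32 for Phf19, 0.14 to 0.52 for Phf1 and -3.25 to -1.85 for Jarid2 plus Aebp2, the last passing without J1 2i replicate 2 (-2.85, adjusted p = 0.00833) or 3B3-3l serum replicate 1. The Phf1 line effect passed on reads without length scaling (0.48). With a minimum share of 20%, 2 of 18 transcript tests passed, both for Aebp2-002. The causes were not tested.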
